A study of Mus musculus with 9 samples.

Results

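The 7 genes described here encode efflux transporters of the ATP-binding cassette (ABC) family in mouse brain endothelial cells: Abcb1a, Abcb1b, Abcg2, Abcc1, Abcc4, Abca1 and Abcg1. They were chosen by name, and all 7 have a row among the 23420 genes of the count matrix. Their transcripts were measured in 9 bulk libraries, 3 for each of 3 genotypes, and each library was made from 20000 cells sorted from brain homogenate. The sort kept cells that display CD31, a marker of endothelium, and lack CD45, a marker of leukocytes. All animals are labelled as male C57BL/6 mice aged 6 months. The WT group carries no named allele. The APP/PS1 group is a transgenic model of brain amyloid deposition. The APP/PS1xRIPK1KD group carries the same transgenes together with an altered Ripk1, whose product is a kinase of cell death and inflammatory signalling. The labels do not say what KD stands for. Each library is described as coming from 1 mouse. The labels name no promoter for the transgenes.

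Efflux transporters of the ABC family use ATP to move molecules out of the cell or between the leaflets of its membrane. In the endothelium of the blood-brain barrier, P-glycoprotein (Abcb1a and Abcb1b in the mouse) and the breast cancer resistance protein (Abcg2) sit on the luminal side and return drugs and other lipophilic compounds to the blood. Proteins of the Abcc group export organic anions and conjugates. Abca1 and Abcg1 hand cholesterol and phospholipid to apolipoprotein particles, and both are known target genes of the liver X receptors (LXR). P-glycoprotein has been studied as one of the routes by which amyloid-beta leaves the brain.

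The libraries held 16263792 to 52413200 expected counts, of which the ribosomal precursor Rn45s took 15.8% to 33.8%. The 10 endothelial markers, among them Cldn5 and Cdh5, were detected in every library and summed to between 21800 and 27400 CPM, the depth-scaled count, here computed with TMM-adjusted library sizes. Ptprc, which encodes CD45, did not exceed 0.918 CPM. The Ripk1 transcript ran from 34.9 to 48.1 CPM in WT, from 40.9 to 75.3 in APP/PS1 and from 31.4 to 44.9 in APP/PS1xRIPK1KD, so its level did not tell the genotypes apart. Transcripts of mural cells (pericytes and vascular smooth muscle) differed between the groups: the summed level of 12 markers was 10.7 to 55.3 CPM in WT, 179 to 237 in APP/PS1 and 64.3 to 260 in APP/PS1xRIPK1KD. Of the 12, Pdgfrb alone was at 0, in 1 WT library. Summed markers of 3 other cell types were also apart from WT. The 6 fibroblast markers reached 0.132 to 1.24 CPM in WT, 6.82 to 13.4 in APP/PS1 and 2.06 to 7.26 in APP/PS1xRIPK1KD, with Lum at 0 in all 9 libraries. The 8 astrocyte markers reached 3.51 to 7.23, 9.82 to 17.9 and 6.20 to 14.0 CPM, the last overlapping WT. The 6 choroid plexus markers, mostly Ttr, reached 41.5 to 68.3, 53.1 to 144 and 172 to 306 CPM, and APP/PS1 overlapped WT. Within groups, WT replicate 2 had the highest capillary endothelial sum (3780 CPM, against 1840 to 2930 in the other 8 libraries), and APP/PS1 replicate 3 the highest erythroid sum (9350 CPM, against 1930 to 4070) and oligodendrocyte sum (86.4 CPM, against 29.6 to 52.9). Although all libraries are labelled male, replicates 1 and 2 of each genotype carried the X-inactivation transcript Xist (234 to 521 CPM of the library total), and replicate 3 of each genotype carried Y-linked transcripts instead (summed 144 to 194 CPM of the library total). Among the latter, APP/PS1xRIPK1KD replicate 3 also held Xist at 5.2 CPM, against 0.0692 in WT replicate 3 and 0 in APP/PS1 replicate 3. Among the Xist libraries, the Y-linked sum was 0.473 CPM in APP/PS1xRIPK1KD replicate 2, 0.0238 in WT replicate 2 and 0 in the rest. The division into Xist and Y-linked libraries was the same in the 3 genotypes. Results were therefore also computed on replicates 1 and 2 alone.

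Per length of transcript, 3 of the 7 transporters stood far above the others. CPM per kilobase of exon (CPM per kb) averaged 161 ± 14.0 for Abcb1a, 115 ± 17.4 for Abcg2 and 99.4 ± 13 for Abcc4 over the 9 libraries (SD, n = 9). Abca1 followed at 4.55 ± 1.71, Abcg1 at 3.68 ± 1.17, Abcc1 at 1.78 ± 0.788 and Abcb1b at 0.910 ± 0.905 CPM per kb. Abcc4 exceeded Abca1 in 9 of 9 libraries with no overlap of their ranges. Every other pair of neighbours in this order overlapped in range: Abcb1a was above Abcg2 in 9 of 9 libraries, Abcg2 above Abcc4 in 7, Abca1 above Abcg1 in 5, Abcg1 above Abcc1 in 9 and Abcc1 above Abcb1b in 8. Over 49 genes of the ABC family, Abcb1a, Abcg2 and Abcc4 together held 60.4% of the summed CPM per kb, and the 7 transporters held 62.2%. The next gene was Tap2 at 45.3 CPM per kb, a subunit of the peptide transporter of the endoplasmic reticulum that loads MHC class I. Among the 13317 genes tested, ordered by mean CPM, Abcb1a was at place 86, Abcg2 at 108 and Abcc4 at 139, whereas Abcb1b was at place 10076. These levels rest on annotated exon lengths and on poly(A)-primed cDNA, so the order between genes is approximate.

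**Figure D1:**
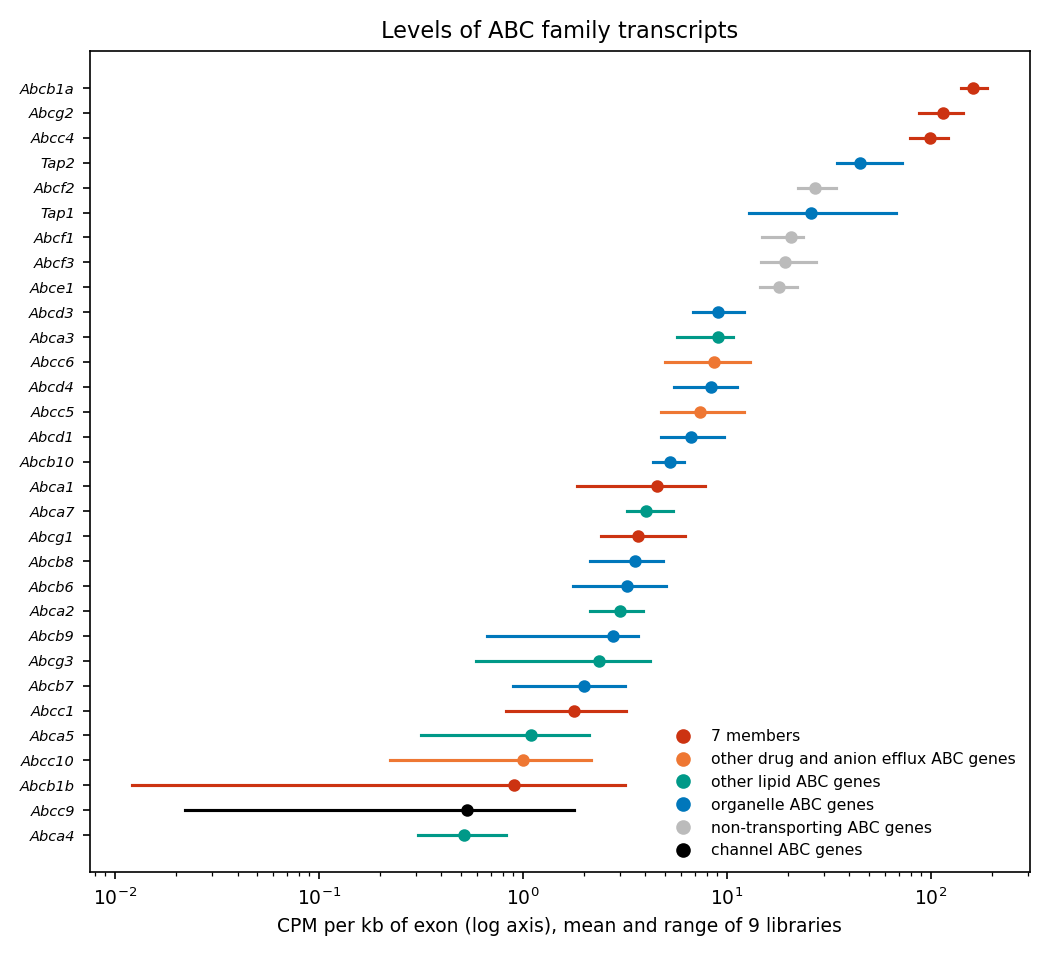
Mean (point) and range (line) over 9 libraries of CPM per kb of exon, on a log axis, for the 31 ABC family genes with a mean of at least 0.1, coloured by role. Abcb1a, Abcg2 and Abcc4 occupy the first 3 places, and the other 4 transporters lie between 0.910 and 4.55 CPM per kb.

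P-glycoprotein is encoded by Abcb1a (ENSMUSG00000040584.8, chr5:8660077-8748575, plus strand, 28 exons) and Abcb1b (ENSMUSG00000028970.9, chr5:8798147-8866315, plus strand, 28 exons), which lie 49572 bases apart on GRCm38. Abcb1a is the form that brain capillaries are known for, and Abcb1b is known from tissues such as the adrenal gland. Their coding sequences were identical at 88.1% of 3819 aligned bases. Of all 25-base stretches of the Abcb1a coding sequence, 31.4% occur unchanged in Abcb1b, and of all 50-base stretches 20.3% do. These are the lengths of the second and the first read, so some reads cannot be placed on one gene by sequence, and the split between both rows is an estimate. The stretches below, from the GENCODE M21 transcripts, show the extremes, numbered from the first base of the start codon. In the first pair (positions 328 to 377 of Abcb1a and 337 to 386 of Abcb1b) no base differs. In the second pair (positions 256 to 305 and 259 to 308), capitals mark the 24 of 50 bases that differ, and a read from there matches only one of both genes closely.
Abcb1a, most alike: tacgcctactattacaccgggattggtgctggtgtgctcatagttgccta
Abcb1b, most alike: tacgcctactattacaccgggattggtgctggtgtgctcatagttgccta
Abcb1a, least alike: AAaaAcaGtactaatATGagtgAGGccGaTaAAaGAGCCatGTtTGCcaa
Abcb1b, least alike: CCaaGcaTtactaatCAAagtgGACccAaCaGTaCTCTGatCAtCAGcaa

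Abcb1a was the steadiest of the transporters. Its level was 829, 848 and 823 CPM in the WT libraries, 743, 942 and 704 in APP/PS1, and 803, 792 and 748 in APP/PS1xRIPK1KD. The APP/PS1 libraries spread on both sides of the WT ones, and the APP/PS1xRIPK1KD libraries all lay below them. Against WT, the log2 fold change was -0.07 ± 0.13 (SE; 95% interval -0.34 to 0.21; adjusted p = 0.975, edgeR quasi-likelihood test with Benjamini-Hochberg adjustment over all genes) in APP/PS1 and -0.09 ± 0.13 (-0.37 to 0.18; adjusted p = 0.995) in APP/PS1xRIPK1KD. Neither difference passed the test. The interval against WT in APP/PS1 spans 0.791-fold to 1.15-fold, which bounds the size of a difference in this transcript.

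Abcb1b was near the limit of detection in 1 library and uneven in the rest. Its level was 2.80, 0.0527 and 3.64 CPM in WT, 3.27, 1.45 and 13.7 in APP/PS1, and 2.59, 4.72 and 3.03 in APP/PS1xRIPK1KD. The lowest value rests on 2.25 expected counts in WT replicate 2, which is below a floor of 3 counts, and the highest on 689 counts in APP/PS1 replicate 3. The latter library, the one with the high erythroid and oligodendrocyte sums, was also the lowest of the 9 for Abcb1a, Abcg2 and Abca1, and the former was the highest for Abcg2 and Abcg1. The part of those marker levels in these values was not tested. The groups overlapped. The log2 fold change was 1.51 ± 1.04 in APP/PS1 against WT (95% interval -0.74 to 3.76; adjusted p = 0.887, edgeR), and the interval admits large differences either way. Without APP/PS1 replicate 3 it was 0.11, and without WT replicate 2 it was 0.94. Of the counts of both genes, Abcb1b took 0.336%, 0.007% and 0.441% in WT, 0.436%, 0.154% and 1.91% in APP/PS1, and 0.322%, 0.593% and 0.403% in APP/PS1xRIPK1KD. In every library Abcb1a thus supplied nearly all P-glycoprotein transcript, and the 1.91% of APP/PS1 replicate 3 was the highest share. Mean shares were 0.261%, 0.833% and 0.439% in the 3 groups in that order, and the exact 2-sided permutation test gave p = 0.5 for APP/PS1 against WT, 0.8 for APP/PS1xRIPK1KD against APP/PS1 and 0.5 for APP/PS1xRIPK1KD against WT, where 0.1 is the smallest p that 3 libraries against 3 allow. Without APP/PS1 replicate 3, the difference between APP/PS1 and WT in this share went from 0.571 to 0.034 percentage points, and that between APP/PS1xRIPK1KD and APP/PS1 from -0.393 to 0.144. The difference between APP/PS1xRIPK1KD and WT went from 0.178 to 0.0508 without WT replicate 2. The sum of both genes, which does not depend on how reads were split, gave log2 fold changes of -0.06 ± 0.12 in APP/PS1 against WT, -0.03 ± 0.12 in APP/PS1xRIPK1KD against APP/PS1 and -0.09 ± 0.12 in APP/PS1xRIPK1KD against WT (adjusted p = 0.98, 1 and 0.995, edgeR).

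**Figure D2:**
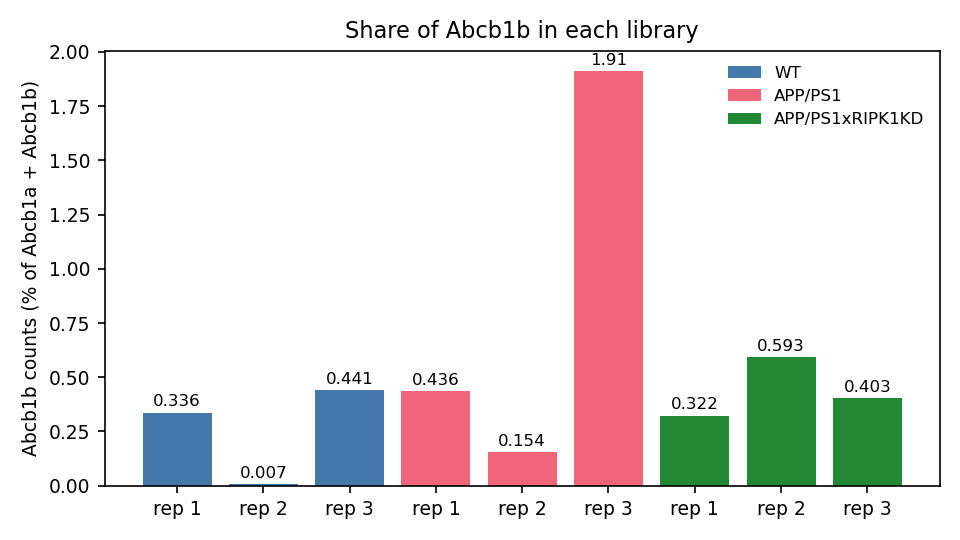
Abcb1b as a percentage of the expected counts of Abcb1a and Abcb1b together, 1 bar per library, coloured by genotype. Shares run from 0.007% in WT replicate 2 to 1.91% in APP/PS1 replicate 3, and the other 7 libraries lie between 0.154% and 0.593%.

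Abcg2 (ENSMUSG00000029802.13, chr6:58584523-58695676, plus strand) encodes a half-transporter that works as a dimer and shares many substrates with P-glycoprotein. It was measured at 705, 866 and 680 CPM in WT, at 706, 840 and 528 in APP/PS1, and at 647, 632 and 639 in APP/PS1xRIPK1KD. The last group was the tightest of all (640 ± 7.46 CPM, SD, n = 3), and its 3 libraries lay below the 3 WT libraries. The log2 fold change was -0.12 ± 0.16 in APP/PS1 against WT (95% interval -0.47 to 0.23; adjusted p = 0.961, edgeR) and -0.23 ± 0.16 in APP/PS1xRIPK1KD against WT (-0.58 to 0.12; adjusted p = 0.922). Neither passed the test.

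Abcc4 (ENSMUSG00000032849.14, chr14:118482692-118706219, minus strand) encodes MRP4, an exporter of cyclic nucleotides, nucleotide analogues and conjugated anions. It was measured at 697, 609 and 620 CPM in WT, at 543, 605 and 521 in APP/PS1, and at 582, 492 and 455 in APP/PS1xRIPK1KD. Both APP/PS1 and APP/PS1xRIPK1KD lay below WT in every library, by a margin of 605 against 609 CPM between the nearest libraries of APP/PS1 and WT. Group means were 642 ± 48.0, 556 ± 43.4 and 510 ± 65.4 CPM (SD, n = 3 each). The log2 fold change was -0.21 ± 0.13 in APP/PS1 against WT (95% interval -0.48 to 0.07; adjusted p = 0.857, edgeR) and -0.33 ± 0.13 in APP/PS1xRIPK1KD against WT (-0.61 to -0.06; adjusted p = 0.721). Although the second interval does not reach 0, Abcc4 was only at place 409 of the 13317 genes by unadjusted p in that comparison, and the difference did not pass the test. On replicates 1 and 2 alone the values were -0.19 and -0.28 (adjusted p = 0.665 and 0.801, edgeR).

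Abcc1 (ENSMUSG00000023088.17, chr16:14361558-14475737, plus strand) encodes MRP1, an exporter of glutathione and glucuronide conjugates. Its transcript was scarce and varied within each group: 22.1, 7.30 and 14.0 CPM in WT, 8.25, 5.76 and 16.6 in APP/PS1, and 16.5, 12.3 and 8.07 in APP/PS1xRIPK1KD. All groups overlapped. The log2 fold change was -0.50 ± 0.46 in APP/PS1 against WT and 0.27 ± 0.46 in APP/PS1xRIPK1KD against APP/PS1 (adjusted p = 0.927 and 1, edgeR).

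Of the lipid transporters, Abca1 (ENSMUSG00000015243.4, chr4:53030787-53159895, minus strand) had the lowest fold against WT in APP/PS1 among the 7 genes over all 9 libraries. Abcc1 was lower than Abca1 on replicates 1 and 2 alone (-1.08 against -0.57), without APP/PS1 replicate 3 (-1.05 against -0.40) and without WT replicate 2 (-0.82 against -0.74). Abca1 loads cholesterol onto lipid-poor apolipoproteins, including apolipoprotein E in the brain. It was measured at 80.5, 60.5 and 45.8 CPM in WT, at 50.0, 44.7 and 18.9 in APP/PS1, and at 37.1, 31.8 and 51.3 in APP/PS1xRIPK1KD. Only WT replicate 3, the lowest of its group, overlapped the other genotypes. The log2 fold change was -0.72 ± 0.33 in APP/PS1 against WT (95% interval -1.43 to -0.01; adjusted p = 0.801, edgeR) and -0.64 ± 0.32 in APP/PS1xRIPK1KD against WT (-1.34 to 0.07; adjusted p = 0.868), and neither passed the test. In replicates 1 and 2 alone the 3 groups did not overlap, with WT highest and APP/PS1xRIPK1KD lowest, and the log2 fold changes were -0.57 and -1.03 against WT (adjusted p = 0.367 and 0.229, edgeR). Replicate 3 gave another order, with APP/PS1xRIPK1KD highest and APP/PS1 lowest. Between APP/PS1xRIPK1KD and APP/PS1 the log2 fold change was 0.09 ± 0.32 over 3 replicates and -0.46 over replicates 1 and 2.

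Abcg1 (ENSMUSG00000024030.7, chr17:31057675-31117988, plus strand) moves cholesterol toward mature lipoprotein particles. It was measured at 22.1, 42.6 and 19.0 CPM in WT, at 24.2, 25.8 and 17.5 in APP/PS1, and at 29.6, 28.9 and 16.7 in APP/PS1xRIPK1KD. In each genotype replicate 3 was lowest. The log2 fold change was -0.31 ± 0.32 in APP/PS1 against WT and -0.15 ± 0.32 in APP/PS1xRIPK1KD against WT (adjusted p = 0.931 and 0.997, edgeR). The 3 libraries with Y-linked transcripts held 16.7 to 19.0 CPM of Abcg1 and the 6 with Xist 22.1 to 42.6, without overlap. Abcg1 was the only one of the 7 transporters that these libraries separated in either direction. Of all genes tested, 1.13% were lower in the libraries with Y-linked transcripts without overlap, and the share that were higher was not counted. The summed level of 6 capillary endothelial markers, which include Slc7a5, was likewise lower in the former libraries (1840 to 2040 CPM) than in the latter (2100 to 3780) without overlap, and WT replicate 2 was highest in both. The part of this in the Abcg1 values was not tested. The contrast in Abcg1 was noticed in the values and carries no test.

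**Figure D3:**
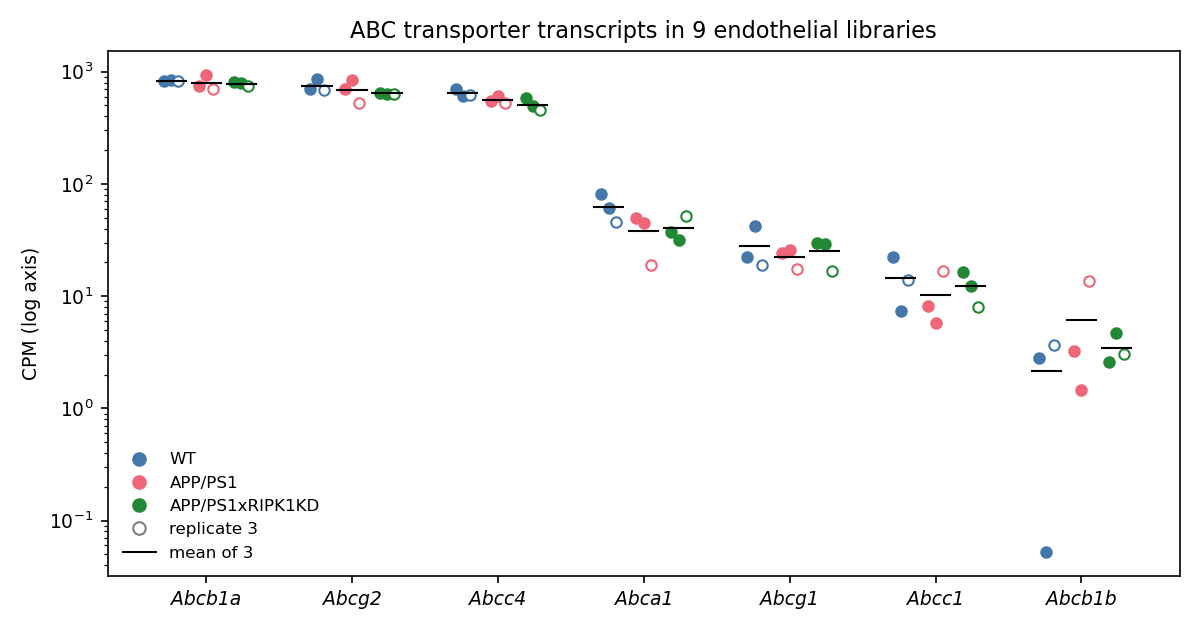
CPM of each transporter in each library on a log axis, ordered by level per length, with 1 point per library, open points for replicate 3 and a bar at the mean of 3 libraries. The levels of Abcb1a, Abcg2 and Abcc4 lie between 455 and 942 CPM in all 9 libraries, and Abcb1b runs from 0.0527 to 13.7.

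Across genotypes, none of the 7 transporters passed an adjusted p of 0.05 by the edgeR quasi-likelihood test. In APP/PS1 against WT, 0 of 7 were called where 0.0225% of all genes were (3 of 13317), and 6 of 7 log2 fold changes were below 0, with a median of -0.21 against 0.00 for all genes. Between APP/PS1xRIPK1KD and APP/PS1, 0 of 7 were called where 0.00751% of genes were, and the median was -0.03. For APP/PS1xRIPK1KD against WT, 0 of 7 were called where 0.0375% of genes were, 6 of 7 values were below 0 and the median was -0.23. Both comparisons against WT use the same 3 WT libraries. At an unadjusted p under 0.05 there were 1 (Abca1), 0 and 1 (Abcc4) of the 7, beside 6.14%, 4.78% and 6.18% of all genes. DESeq2, the edgeR exact test and limma-voom each called 0 of the 7 in every comparison. With so few calls among all genes, a count of 0 of 7 is what the background gives, and it does not show that the levels were the same.

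Counts of libraries without overlap were also set against all genes. In APP/PS1 against WT, 1 of the 7 transporters (Abcc4) was lower without overlap where 5.44% of genes were, and 0 were higher where 5.43% were. For APP/PS1xRIPK1KD against WT, 3 of 7 (Abcb1a, Abcg2 and Abcc4) were lower without overlap where 5.99% of genes were, and 0 were higher where 6.05% were. These are the 3 most abundant transporters, and their fold changes in that comparison were 0.938, 0.852 and 0.794. Between APP/PS1xRIPK1KD and APP/PS1, 0 of 7 were lower or higher without overlap, beside 4.66% and 5.32% of genes. Slc2a1, which encodes the glucose transporter of the barrier, was also lower in APP/PS1xRIPK1KD (5260 to 7740 CPM) than in WT (7790 to 8850) without overlap. Cldn5 and Cdh5, tight and adherens junction genes, and the endothelial marker Pecam1 overlapped. Their means were higher in APP/PS1xRIPK1KD than in WT: 7650 against 6830 CPM for Cldn5, 599 against 576 for Cdh5 and 1210 against 1160 for Pecam1. The remaining endothelial markers were not compared by group. The summed 10 endothelial markers, which include Slc2a1, were 25000 to 27400 CPM in WT and 21800 to 25500 in APP/PS1xRIPK1KD, with overlap. The mean of Slc2a1 alone was 8490 CPM in WT and 6390 in APP/PS1xRIPK1KD, and the sum was not computed without it. The mural, fibroblast and choroid plexus sums were higher in APP/PS1xRIPK1KD than in WT without overlap, as given above. The part of these in the lower transporter values was not tested. In bulk libraries, fewer cells of a type and less RNA per cell cannot be told apart.

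**Figure D4:**
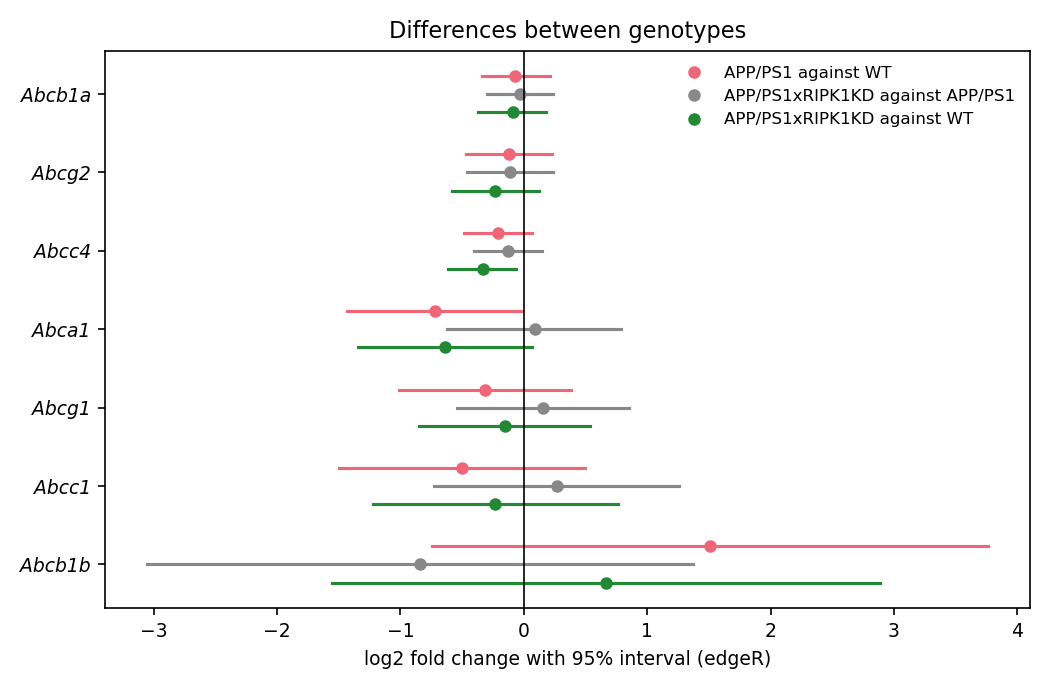
Log2 fold change (point) and 95% interval (line) of each transporter in the 3 comparisons, from the edgeR model over 9 libraries. Intervals are narrow for Abcb1a, Abcg2 and Abcc4 and widest for Abcb1b, and all but those of Abcc4 (APP/PS1xRIPK1KD against WT) and Abca1 (APP/PS1 against WT) include 0.

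The authors' deposited table of APP/PS1 against WT lists 12460 genes, of which 26 pass an FDR of 0.05, and none of the 7 transporters is among them. In the authors' deposited table, Abca1 has a log2 fold change of -0.70 (FDR 0.72), Abcc4 of -0.23, Abcb1a of -0.05, Abcg2 of -0.11 and Abcb1b of 1.07. Each has the sign found here, but that table comes from the same series and is not independent of the values given here.

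The transporters were compared with each other over the 9 libraries by the correlation of log2 CPM in all 21 pairs. For Abcb1a and Abcg2, r was positive but did not pass the adjusted threshold (Pearson r = 0.82, permutation p = 0.00959, adjusted over 21 pairs 0.101; Spearman rho = 0.72, permutation p = 0.0369, adjusted 0.194), and r was 0.53 without the 2 libraries farthest from the median. For Abcb1b and Abcg2, r was negative (r = -0.85, permutation p = 0.00206, adjusted 0.0432; rho = -0.78, permutation p = 0.0172, adjusted 0.194), and r was -0.82 without the 2 farthest libraries. This was the only pair of the 21 with an adjusted p under 0.05 by Pearson's r, and by Spearman's rho there was none. It did not pass with RLE scaling, without Rn45s or when any 1 library was left out. On residuals from the genotype means r was still -0.85 (permutation p within genotypes = 0.00463). That is the smallest p those permutations allow, so a single pair could not pass after adjustment over 21 pairs. The lipid transporters Abca1 and Abcg1 had r = 0.25 (permutation p = 0.525, adjusted 0.552). The 9 libraries also differ in genotype, depth, Rn45s share and summed markers of endothelial segments, and all pairs share these points. The arterial sum ran from 345 to 1120 CPM, the venous from 443 to 1810 and the capillary from 1840 to 3780.

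**Figure D5:**
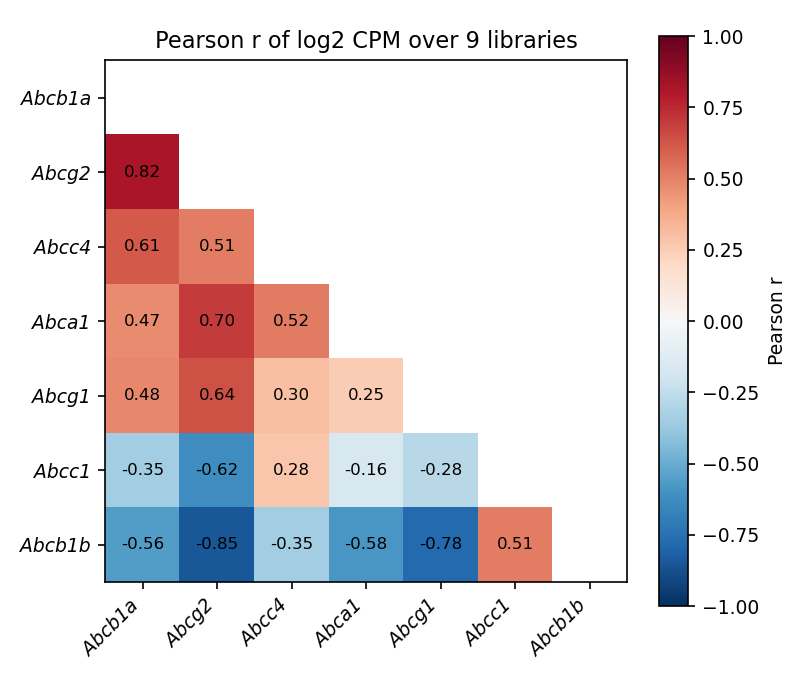
Pearson r of log2 CPM for the 21 pairs of transporters over 9 libraries, from -1 (blue) to 1 (red). Abcb1b has negative r with Abcb1a, Abcg2, Abcc4, Abca1 and Abcg1, down to -0.85 with Abcg2, and positive r with Abcc1.

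Of 8400 genes of at least 10 CPM on average, the one most like Abcg1 over the 9 libraries was Slc7a5 (r = 0.97), the large neutral amino acid transporter of the barrier, which ran from 321 to 673 CPM. The genes most like Abcb1a were Atg4a (r = 0.92) and Eps8 (r = 0.91), and Eps8, an actin-capping adaptor, was also among the 3 most like Abcg2 (r = 0.96). For Abcc4 the highest was Fam160a2 (r = 0.90), for Abca1 Pde12 (r = 0.92), for Abcc1 Myg1 (r = 0.95) and for Abcb1b Stk38l (r = 0.94). These are the extremes of 8400 values per transporter over 9 libraries and are given as a description.

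Among the other ABC genes, grouped by role, none passed the edgeR test in any comparison. At an unadjusted p under 0.05 in APP/PS1 against WT there were 2 organelle genes, 1 channel gene, 2 non-transporting genes and none of the rest, where 6.14% of all genes were. There were 2 organelle genes and 1 channel gene in APP/PS1xRIPK1KD against WT (6.18% of all genes) and 1 channel gene in APP/PS1xRIPK1KD against APP/PS1 (4.78%). The channel gene was Abcc9 each time, as only 1 of the 3 channel genes was tested. Of 8 other drug and anion exporters, 3 were tested: Abcc5, Abcc6 and Abcc10, at means of 46.7, 44.4 and 5.87 CPM over the 9 libraries. Abcb4, the phosphatidylcholine flippase of the liver and a close relative of Abcb1a, was at 0 in 9 of 9 libraries, as was Abcc12. Abcc2, the canalicular anion exporter, was at 0 in 8 of 9, and Abcc3 in 6 of 9. In APP/PS1 against WT the 3 tested genes all had values below 0 (median -0.41), and 0 passed. Of 16 other lipid ABC genes, 6 were tested, 4 of them below 0 in APP/PS1 against WT (median -0.11). All 11 organelle ABC genes were tested, 7 of them below 0 in APP/PS1 against WT (median -0.30). The 4 non-transporting genes, which act in translation, were all tested, and 3 of them were above 0 (median 0.14). Among the organelle genes, Tap1 was 51.9 ± 12.2 CPM in APP/PS1xRIPK1KD and 114 ± 73.9 in WT without overlap (SD, n = 3; log2 fold change -1.14 ± 0.38; adjusted p = 0.662, edgeR). Abcd3, a peroxisomal fatty acid transporter, was 40.3 ± 4.38 CPM against 26.0 ± 1.20 in the same comparison (0.63 ± 0.19; adjusted p = 0.596). Abcc9, the sulfonylurea receptor subunit of potassium channels and a pericyte marker, had the highest fold of the family: 9.16 ± 5.05 CPM in APP/PS1 against 0.741 ± 0.665 in WT without overlap (3.62 ± 0.70; adjusted p = 0.358, edgeR). It is itself 1 of the 12 mural markers, whose sum differed between these groups as given above, and its part as an endothelial transcript was not tested.

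Genes that regulate or serve the transporters were read from 3 lists, and 0 of their members passed the edgeR test in any comparison. At an unadjusted p under 0.05 there were 2 genes of the LXR pathway, 1 of the xenobiotic response and 2 of cholesterol supply in APP/PS1 against WT, 1, 3 and 1 in APP/PS1xRIPK1KD against WT, and 0, 1 and 0 in APP/PS1xRIPK1KD against APP/PS1, beside the same shares of all genes. Of 16 genes of the LXR pathway, 15 were tested, with 8 above and 7 below 0 in APP/PS1 against WT (median 0.04) and 7 above and 8 below in APP/PS1xRIPK1KD against WT (median -0.02). Pltp, the phospholipid transfer protein and a known LXR target, was at 3570 ± 186 CPM in APP/PS1 and 4640 ± 814 in WT (SD, n = 3; -0.38 ± 0.14; adjusted p = 0.787, edgeR). Nr1h3, which encodes LXR-alpha, was at 7.08 ± 2.71 CPM in APP/PS1xRIPK1KD and 14.1 ± 6.35 in WT without overlap (-0.99 ± 0.39; adjusted p = 0.729), while the more abundant Nr1h2, LXR-beta, averaged 119 CPM over the 9 libraries. Of 20 genes of the xenobiotic and antioxidant response, 16 were tested, with 12 below 0 in APP/PS1 against WT (median -0.04). Por, the electron donor of cytochromes P450, was at 161 ± 12.0 CPM in WT, 112 ± 12.3 in APP/PS1 and 104 ± 10.5 in APP/PS1xRIPK1KD (log2 fold changes of -0.52 ± 0.13 and -0.62 ± 0.13 against WT; adjusted p = 0.711 and 0.27, edgeR). Both genotypes lay below WT without overlap. Gsta4, a glutathione transferase, was at 150 ± 18.1 CPM in WT, 136 ± 14.2 in APP/PS1 and 38.9 ± 37.3 in APP/PS1xRIPK1KD, where libraries ran from 15.9 to 81.9 and lay below both other genotypes (-1.95 ± 0.58 against WT and -1.81 ± 0.57 against APP/PS1; adjusted p = 0.647 and 0.98, edgeR). All 12 genes of cholesterol supply and sensing were tested, with 7 above 0 in APP/PS1 against WT (median 0.15) and 8 in APP/PS1xRIPK1KD against WT (median 0.17). Insig1, a sterol-sensing brake on cholesterol synthesis, was at 30.0 ± 7.55 CPM in WT, 48.9 ± 2.43 in APP/PS1 and 54.0 ± 2.87 in APP/PS1xRIPK1KD, higher in both without overlap (0.70 ± 0.18 and 0.85 ± 0.18; adjusted p = 0.711 and 0.27, edgeR).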

How the data were processed

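Per the labels' protocols, RNA of sorted cells was primed from the poly(A) tail (Smart-seq2) and sequenced in pairs of 50 and 25 bases, without strand or molecular identifiers. PCR copies are therefore counted as reads, and the floor of 3 counts covers counting error alone. The authors deposited expected counts per gene symbol; the submitters' processing notes name Bowtie 0.12.2, RSEM, edgeR 3.10.2 and mm10 (GRCm38), without naming the annotation. The authors' deposited edgeR table holds log2 fold changes, log2 CPM and p-values with their FDR. Expected counts, of which 28.3% were not whole, were rounded. edgeR 4.0.16 in R 4.3.3 kept 13317 genes (filterByExpr, minimum count 10 and total 15), scaled by TMM, and fitted 1 robust quasi-likelihood model to 9 libraries. The 3 contrasts were 2-sided, with Benjamini-Hochberg adjustment and a threshold of 0.05. All 7 members passed the filter. Correlations used log2 CPM with a prior count of 2. Alternatives were DESeq2 1.42.0, the edgeR exact test, limma-voom (limma 3.58.1), other scalings and filters, fewer libraries and a replicate term. Python 3.11.15 with scipy 1.17.1 ran permutation tests. Positions and exon lengths came from GENCODE M21 (GRCm38) through gene symbols. The members and gene lists were chosen with earlier results of these data known. Besides the members, the text names label and tissue checks, the genes with the smallest p of each list among those of at least 1 CPM, and the genes most correlated with each member. Of these, those that carry a described value are given.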

Additional observations from a re-analysis of the deposited data

How the results depend on the processing

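No transporter passed the threshold under any of the 19 alternatives per comparison, and the smallest adjusted p was 0.229 (Abca1, APP/PS1xRIPK1KD against WT, replicates 1 and 2 only, edgeR). Of 399 log2 fold changes, 381 kept their sign and 18 did not, and the causes were not tested. The 381 include settings that could hardly change a sign, such as leaving out a library of the genotype outside the comparison. Abca1 in APP/PS1 against WT was -0.71 whichever APP/PS1xRIPK1KD library was left out. With replicates 1 and 2 only, Abcb1a became 0.01 and the sum of Abcb1a and Abcb1b 0.01 in APP/PS1 against WT, and in APP/PS1xRIPK1KD against APP/PS1 Abcb1b became 0.64, Abca1 -0.46 and the difference in Abcb1b share 0.162 percentage points. Over all genes tested, same-numbered libraries of different genotypes shared little once genotype means were subtracted (correlation of deviations -0.019 to 0.098 over 9 pairs). Of the 9 libraries, 4 were closest to one of their own number. The replicate 3 pairs held the highest values (0.039, 0.054 and 0.098), and these libraries share the Y-linked transcripts given above. With a replicate block, 0 transporters were called, Abcb1b in APP/PS1xRIPK1KD against APP/PS1 became 0.09, and 2, 0 and 0 genes in all were called in the 3 comparisons.

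Leaving out 1 library gave these ranges. In APP/PS1 against WT they were -0.21 to 0.02 for Abcb1a, -0.19 to 0.02 for the sum of both Abcb1 genes, -0.28 to 0.04 for Abcg2, -0.53 to 0.13 for Abcg1, 0.11 to 2.11 for Abcb1b, -1.05 to -0.06 for Abcc1, -0.97 to -0.40 for Abca1 and -0.27 to -0.14 for Abcc4. In APP/PS1xRIPK1KD against APP/PS1 they were -0.11 to 0.12 for Abcb1a, -0.11 to 0.11 for the sum, -1.29 to 0.56 for Abcb1b, -0.27 to 0.06 for Abcg2, -0.01 to 0.82 for Abcc1, -0.24 to 0.33 for Abca1, -0.22 to -0.04 for Abcc4, 0.01 to 0.39 for Abcg1 and -0.732 to 0.144 percentage points for the Abcb1b share. In APP/PS1xRIPK1KD against WT they were -0.55 to 0.21 for Abcc1, -0.37 to 0.29 for Abcg1, 0.10 to 1.28 for Abcb1b, -0.84 to -0.41 for Abca1, -0.30 to -0.11 for Abcg2, -0.43 to -0.25 for Abcc4 and -0.10 to -0.05 for Abcb1a. Pairs of transporters past the threshold numbered 0 with RLE scaling, without Rn45s, on residuals and with any library left out (0 to 0), against 1. On residuals a single pair could not pass, as given above.

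Calls over all genes were 3, 1 and 5. In APP/PS1 against WT, DESeq2 called 73, the exact test 16, no filter 7, and leaving out a library 1 to 5. In APP/PS1xRIPK1KD against APP/PS1, DESeq2 called 32, the exact test 11, limma-voom 0, replicates 1 and 2 alone 0, and leaving out a library 0 to 4. In APP/PS1xRIPK1KD against WT, DESeq2 called 86, the exact test 35, limma-voom 2, upper-quartile scaling 8, no filter 14, the 6 libraries of those genotypes 3, replicates 1 and 2 alone 8, and leaving out a library 2 to 9. Depth limits Abcb1b most, with 2 to 689 counts a library, and Abcc1, with 131 to 835.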
